A study of Homo sapiens with 70 samples.

Results

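The collagen genes were taken as all genes whose symbol consists of COL, a number, A and a second number, with nothing after it. This gave 44 of the 44503 genes in the count tables. They were grouped into 11 fibrillar collagens, 9 basement membrane collagens and 24 other collagens. The fibrillar class held the chains of types I, II, III, V, XI, XXIV and XXVII. The basement membrane class held the type IV chains, the anchoring fibril chain COL7A1, and COL15A1 and COL18A1, which belong to the multiplexin family. The other class held the type VI chains, the collagens that bind to fibrils (such as COL12A1 and COL16A1), the network-forming types VIII and X, and the transmembrane collagens. The rule uses the symbol alone and no measured value.

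Collagens are secreted proteins in which 3 chains wind around each other as a triple helix. Type I collagen, the main fibre of connective tissue, is made of COL1A1 and COL1A2 chains, and it forms mixed fibrils with types III and V. Type IV collagen forms the sheet-like network of basement membranes, and type VI collagen forms fine beaded filaments at the cell surface and in the surrounding matrix. Fibroblasts are the main source of fibrillar and type VI collagen in the lung, and senescent fibroblasts are known to change which matrix components they secrete.

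RNA-seq was performed in 3 separate experiments with 70 libraries in 11 groups. The first used IMR90 cells, normal human lung fibroblasts that carried the vector pLNCX2 ER:HRAS G12V, an oncogenic HRAS that is switched on by 4OHT (4-hydroxytamoxifen) and drives the cells into oncogene-induced senescence (OIS). Its groups were Grow (day 0, pMSCV miR v control vector), OIS (6 days of 100 nM 4OHT, same vectors), Grow-shA1 (day 0, with pMSCV miR shHMGA1 in place of the control vector) and OIS-shA1 (6 days of 100 nM 4OHT with shHMGA1), each with 8 libraries. The second used IMR90 cells with the same HRAS vector in 5 groups of 5 libraries. Grow-v-v was taken at day 0 without 4OHT, and the 4 OIS groups after 6 days of 100 nM 4OHT. Grow-v-v and OIS-v-v cells carried control vectors, OIS-shCEBPB cells an shRNA against CEBPB, OIS-shp53 cells the shRNA of that label, and OIS-shCEBPB-shp53 cells both. The third compared H1299, a line from a human lung cancer of the non-small cell kind, with the MSCV vector (7 libraries), with H1299-shA1, which carried MSCV shHMGA1 (6 libraries). The models are bulk cultures of 2 cell lines in which the vectors were introduced into the cell population, and no label says which libraries came from separate cultures, so p-values measure the spread between these libraries, which is possibly technical in part. In bulk RNA, fewer cells that make a collagen and less collagen RNA per cell cannot be told apart.

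Total counts per library ranged from 13904974 to 24890797, apart from OIS replicate 4 with 1903607. HMGA1 was at 436 to 557 CPM (counts scaled to a library size of 1e6) in Grow and 27 to 39.1 CPM in Grow-shA1, at 631 to 825 CPM in OIS and 51.4 to 68.5 CPM in OIS-shA1, and at 1716 to 1976 CPM in H1299 and 357 to 449 CPM in H1299-shA1. CEBPB was likewise lower in both groups with an shRNA against it than in every OIS-v-v library. All 8 fibroblast markers looked for had a mean of at least 1 CPM in each IMR90 group, and they summed to 3810 to 4780 CPM in Grow and 2440 to 3260 CPM in OIS, and to 6850 to 8620 CPM in Grow-v-v and 5930 to 6580 CPM in OIS-v-v, without overlap. The part of this fall in the changes of the collagens was not tested. The endothelial markers CDH5, VWF and KDR summed to between 0.272 and 6.25 CPM over the IMR90 libraries, and the leukocyte markers PTPRC and CD14 had means under 1 CPM in every group. CD68, which is not restricted to leukocytes, was the only one of the 3 leukocyte markers above 1 CPM, and their sum was 16.2 to 22.7 CPM in Grow and 43.9 to 58.6 CPM in OIS, and 28.6 to 46.9 CPM in Grow-v-v and 47.0 to 90.1 CPM in OIS-v-v. The part of this list in the results was not tested. In H1299 the epithelial markers EPCAM, CDH1 and KRT19 were under 1 CPM, whereas KRT8 and KRT18 had means of 495 and 445 CPM.

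Promoter sequences of 2 collagen pairs are shown, as the genes of each pair start side by side and face away from each other. The genes of a pair moved the same way in the comparison named here, but not in every comparison. COL4A5 fell and COL4A6 rose in OIS, and with shA1 in growing cells COL4A1 fell while COL4A2 did not pass. COL4A1 (chromosome 13, 110801318 to 110959496, minus strand) and COL4A2 (chromosome 13, 110958159 to 111165374, plus strand; hg19) are both type IV chains, and both fell in OIS. COL4A6 (chromosome X, 107386780 to 107682727, minus strand) and COL4A5 (chromosome X, 107683074 to 107940775, plus strand; hg19) lie 346 bp apart, and both rose with shA1 in growing cells. COL15A1 (chromosome 9, 101705461 to 101833069, plus strand; hg19) is shown as the collagen with the largest change in OIS. The stretches come from RefSeq on GRCh38.p14, are written 5′ to 3′ on the strand given, and end at the base before the start site of the last gene named. Capitals mark the CCAAT box and the GC box (GGGCGG).
COL4A1 and COL4A2, the 126 bases between both start sites, chr13:110307158-110307283, plus strand: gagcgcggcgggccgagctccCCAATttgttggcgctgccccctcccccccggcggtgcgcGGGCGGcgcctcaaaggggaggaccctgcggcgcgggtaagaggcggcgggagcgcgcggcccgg
COL4A6, chrX:108439459-108439578, minus strand: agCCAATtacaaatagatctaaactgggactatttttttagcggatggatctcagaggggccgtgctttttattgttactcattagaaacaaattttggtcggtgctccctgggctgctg
COL4A5, chrX:108439718-108439837, plus strand: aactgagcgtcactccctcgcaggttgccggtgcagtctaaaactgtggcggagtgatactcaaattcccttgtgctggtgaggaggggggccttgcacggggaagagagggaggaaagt
COL15A1, chr9:98943787-98943906, plus strand: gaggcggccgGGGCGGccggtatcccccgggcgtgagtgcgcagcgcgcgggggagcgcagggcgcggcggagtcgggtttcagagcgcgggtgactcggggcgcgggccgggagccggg

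The stretch shared by COL4A1 and COL4A2 held a CCAAT box 101 to 105 bases and a GC box 60 to 65 bases before the COL4A2 start site. The COL4A6 stretch held a CCAAT box 114 to 118 bases before the start, and the COL15A1 stretch a GC box 105 to 110 bases before the start. The COL4A5 stretch held neither, while the 250 bases before its start held 2 CCAAT matches on either strand. COL4A6 had 2 entries, and the entry not printed held 1 GGGCGG match and no CCAAT match in its 250 bases. The RefSeq table had entries for 32 of the 44 collagens, 44 entries in all. In the 250 bases before the start, on either strand, CCAAT was present in 27.3% of the collagen entries and 32% of all 35116 entries, and GGGCGG in 54.5% and 42.6%. The C/EBP motif TTGCNNAA was present in 6.82% of the collagen entries against 9.05% of all entries, the AP-1 motif TGANTCA in 2.27% against 6.57%, and the TATA box TATAAA in 18.2% against 10.7%. A match is only a match of letters, and no binding was measured here.

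In Grow libraries, the collagens made up 7.02% ± 0.503 (SD, n = 8) of all counts, of which the fibrillar class took 3.97%, the basement membrane class 0.867% and the other class 2.19%. Per kb of exon, COL1A1 had the highest level (2428 ± 222 CPM per kb, SD, n = 8), followed by COL1A2 (1300 ± 103) and the type VI chains COL6A1 (954 ± 73.6) and COL6A2 (709 ± 46.7). The ranges of these 4 genes did not overlap each other. COL4A1 followed with 610 CPM per kb, and its range overlapped those of its neighbours COL6A2 and COL6A3. Altogether 28 collagens had a mean of at least 1 CPM in Grow and 18 at least 100 CPM, whereas 7 had no count in any of the 8 libraries.

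In OIS libraries the order was different. The collagens made up 2.56% ± 0.257 (SD, n = 8) of all counts, between 2.09% and 2.84% in single libraries against 6.27% to 7.60% in Grow. COL6A1 (823 CPM per kb) and COL6A2 (804 CPM per kb) were the highest, and their ranges overlapped each other. COL6A3 (261 CPM per kb) and COL1A1 (256 CPM per kb) came next, with overlapping ranges, and COL1A2 was seventh with 98.2 CPM per kb. The fibrillar class held 0.498% of counts and the other class 1.62%, so that the other class was above the fibrillar class in OIS and below it in Grow.

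**Figure D1:**
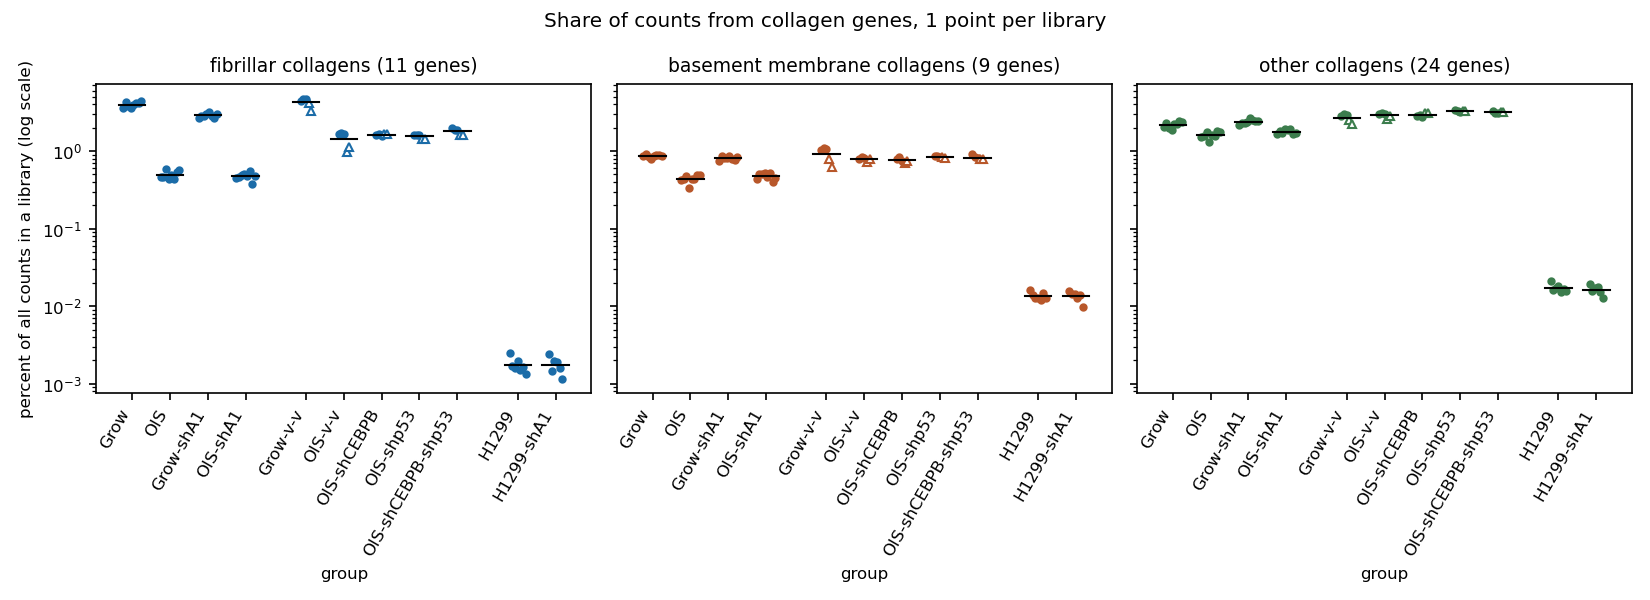
Share of all counts taken by the fibrillar, basement membrane and other collagens in each library, in percent on a log axis, for the 11 groups. Circles are libraries (open triangles are libraries 4 and 5 of the second experiment) and bars are group means. The fibrillar share fell from a mean of 3.97% in Grow to 0.498% in OIS, and all H1299 libraries lie far below the fibroblasts.

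The question of the first comparison was which collagens change when growing fibroblasts become senescent. Of the 44 collagens, 29 passed the filter on low counts in the comparison of OIS with Grow. Of these, 21 were lower and 6 were higher at an adjusted p under 0.05 in edgeR's quasi-likelihood test, while 35.9% of all genes tested were lower and 38.8% were higher. The median log2 fold change was -0.85 over the collagens tested and 0.03 over all 13304 genes tested. For 21 of the 29 collagens the ranges of the OIS and Grow libraries did not overlap, as for 43.7% of all genes tested. Of the fibrillar class 8 of 9 fell, of the basement membrane class 6 of 7, and of the other class 7 of 13. The 15 collagens below the filter were COL2A1, COL4A3, COL4A4, COL6A5, COL6A6, COL9A1, COL11A2, COL19A1, COL20A1, COL21A1, COL22A1, COL23A1, COL25A1, COL26A1 and COL28A1.

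COL1A1 and COL1A2, the chains of type I collagen, were the most abundant collagens in growing cells. COL1A1 was between 20640 and 26240 CPM in Grow (median 23170) and between 1961 and 2903 CPM in OIS (median 2365). It was 9.23-fold lower in OIS (log2 fold change -3.21, SE 0.08, edgeR adjusted p = 3.79e-24). COL1A2 was between 10670 and 13260 CPM in Grow (median 12560) and between 815 and 1051 CPM in OIS (median 888), and it was 12.9-fold lower (log2 fold change -3.69, SE 0.06, edgeR adjusted p = 4.2e-27). All Grow libraries were high and all OIS libraries low for both chains.

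The chains that form mixed fibrils with type I collagen fell as well. COL3A1, the chain of type III collagen, went from 2266 to 2950 CPM in Grow (median 2707) to 227 to 361 CPM in OIS (median 277), a log2 fold change of -3.18 (SE 0.08, edgeR adjusted p = 2.74e-24). COL5A2, a type V chain that lies tail to tail with COL3A1 on chromosome 2 at a distance of 19149 bp, went from 1672 to 2226 CPM (median 2118) to 208 to 261 CPM (median 238), with a log2 fold change of -3.06 (SE 0.06, edgeR adjusted p = 6.45e-26). The other type V chains fell less, COL5A1 with a log2 fold change of -2.08 (SE 0.07) and COL5A3 with -1.92 (SE 0.07). COL11A1, which is best known from cartilage, fell from a mean of 14.6 CPM to 7.77 CPM, a log2 fold change of -0.85. Within the fibrillar class, COL27A1 was the exception and rose from 82.3 ± 5.04 CPM (SD, n = 8) to 115 ± 9.75 CPM (log2 fold change 0.53, SE 0.05, edgeR adjusted p = 7.1e-11).

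The largest change of any collagen was that of COL15A1, a proteoglycan-like collagen that links basement membranes to the fibrils below them. It was between 108 and 136 CPM in Grow (median 116) and between 0.954 and 2.24 CPM in OIS (median 1.65). This was a 71.5-fold fall (log2 fold change -6.16, SE 0.10, edgeR adjusted p = 6.16e-28), and no OIS library came near a Grow library. The main chains of the type IV network fell less. COL4A1 was between 4267 and 5187 CPM in Grow and between 1362 and 1869 CPM in OIS, a log2 fold change of -1.46 (SE 0.05, edgeR adjusted p = 6.45e-20). COL4A2 had a log2 fold change of -0.99 (SE 0.07, edgeR adjusted p = 4.8e-14), from 2993 ± 172 CPM to 1468 ± 205 CPM (SD, n = 8). The other basement membrane collagens changed by less than this. COL7A1, COL18A1 and COL4A5 fell, with log2 fold changes of -0.68, -0.62 and -0.52. Of the exonic bases of COL18A1, 881 bp overlap SLC19A1 on the other strand, and the counting did not use strand. COL4A6 rose slightly (log2 fold change 0.26, SE 0.07, edgeR adjusted p = 0.00148), and its ranges overlapped.

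Within the other class, the type VI chains did not move together. COL6A3 fell from 10650 ± 1412 CPM (SD, n = 8) to 5142 ± 412 CPM, a log2 fold change of -1.01 (SE 0.07, edgeR adjusted p = 4.32e-14). COL6A1 was at 4820 ± 372 CPM in Grow and 4159 ± 596 CPM in OIS, and COL6A2 at 3838 ± 253 CPM and 4356 ± 712 CPM. COL6A1 was called lower (log2 fold change -0.17, edgeR adjusted p = 0.0235) and COL6A2 higher (0.22, edgeR adjusted p = 0.00861), with overlapping ranges for both. The COL6A1 call was lost without Grow replicate 8 (adjusted p = 0.0618) or OIS replicate 2 (0.053, both edgeR), and its log2 fold change was 0.02 when scaled by library size without TMM factors. That scaling moved the median of all genes by 0.189 on the log2 scale.

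COL12A1, which lies along the surface of type I fibrils, fell from 2895 to 4238 CPM in Grow (median 3623) to 870 to 1043 CPM in OIS (median 936), with a log2 fold change of -1.86 (SE 0.06, edgeR adjusted p = 1.16e-20). COL16A1, another fibril-associated collagen, fell with a log2 fold change of -1.47, COL14A1 with -2.47, and COL8A1, which forms short-chain networks under endothelium and in vessel walls, with -2.55. COL13A1, a transmembrane collagen, fell from 87.8 CPM to 47.8 CPM.

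COL10A1, best known as the collagen of hypertrophic cartilage, moved the other way. It was between 2.96 and 6.67 CPM in Grow (median 4.46) and between 32.9 and 47.7 CPM in OIS (median 38). This was a 9.4-fold rise (log2 fold change 3.23, SE 0.11, edgeR adjusted p = 1.23e-20), and the groups did not overlap. Part of its exons (438 bp) overlaps an antisense gene, and without strand the reads of both cannot be told apart. Of 3 chondrocyte markers, SOX9 was the only one with a mean of at least 1 CPM, at 51.0 CPM in Grow and 94.3 CPM in OIS. ACAN had no count in Grow and a mean of 0.0609 CPM in OIS, and MATN1 had means of 0.0213 and 0.0739 CPM. The summed level of these markers was 41.4 to 60.7 CPM in Grow and 83.0 to 107 CPM in OIS, and its part in the rise of COL10A1 was not tested. COL17A1, a transmembrane collagen of hemidesmosomes, rose from 1.05 to 2.31 CPM (log2 fold change 1.23, edgeR adjusted p = 1.28e-05), and COL9A3 from 0.301 to 1.28 CPM, both with overlapping ranges.

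The contractile markers of the myofibroblast, the cell state with high fibrillar collagen output, moved in the same direction as the fibrillar collagens. ACTA2 had a mean of 420 CPM in Grow and 32.3 CPM in OIS, and TAGLN lay between 859 and 1079 CPM and between 45.2 and 80.5 CPM. The 4 markers of this list summed to 1230 to 1520 CPM in Grow and 71.0 to 116 CPM in OIS, with means of MYH11 and DES under 1 CPM in both groups. Their part in the fall of the collagens was not tested.

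**Figure D2:**
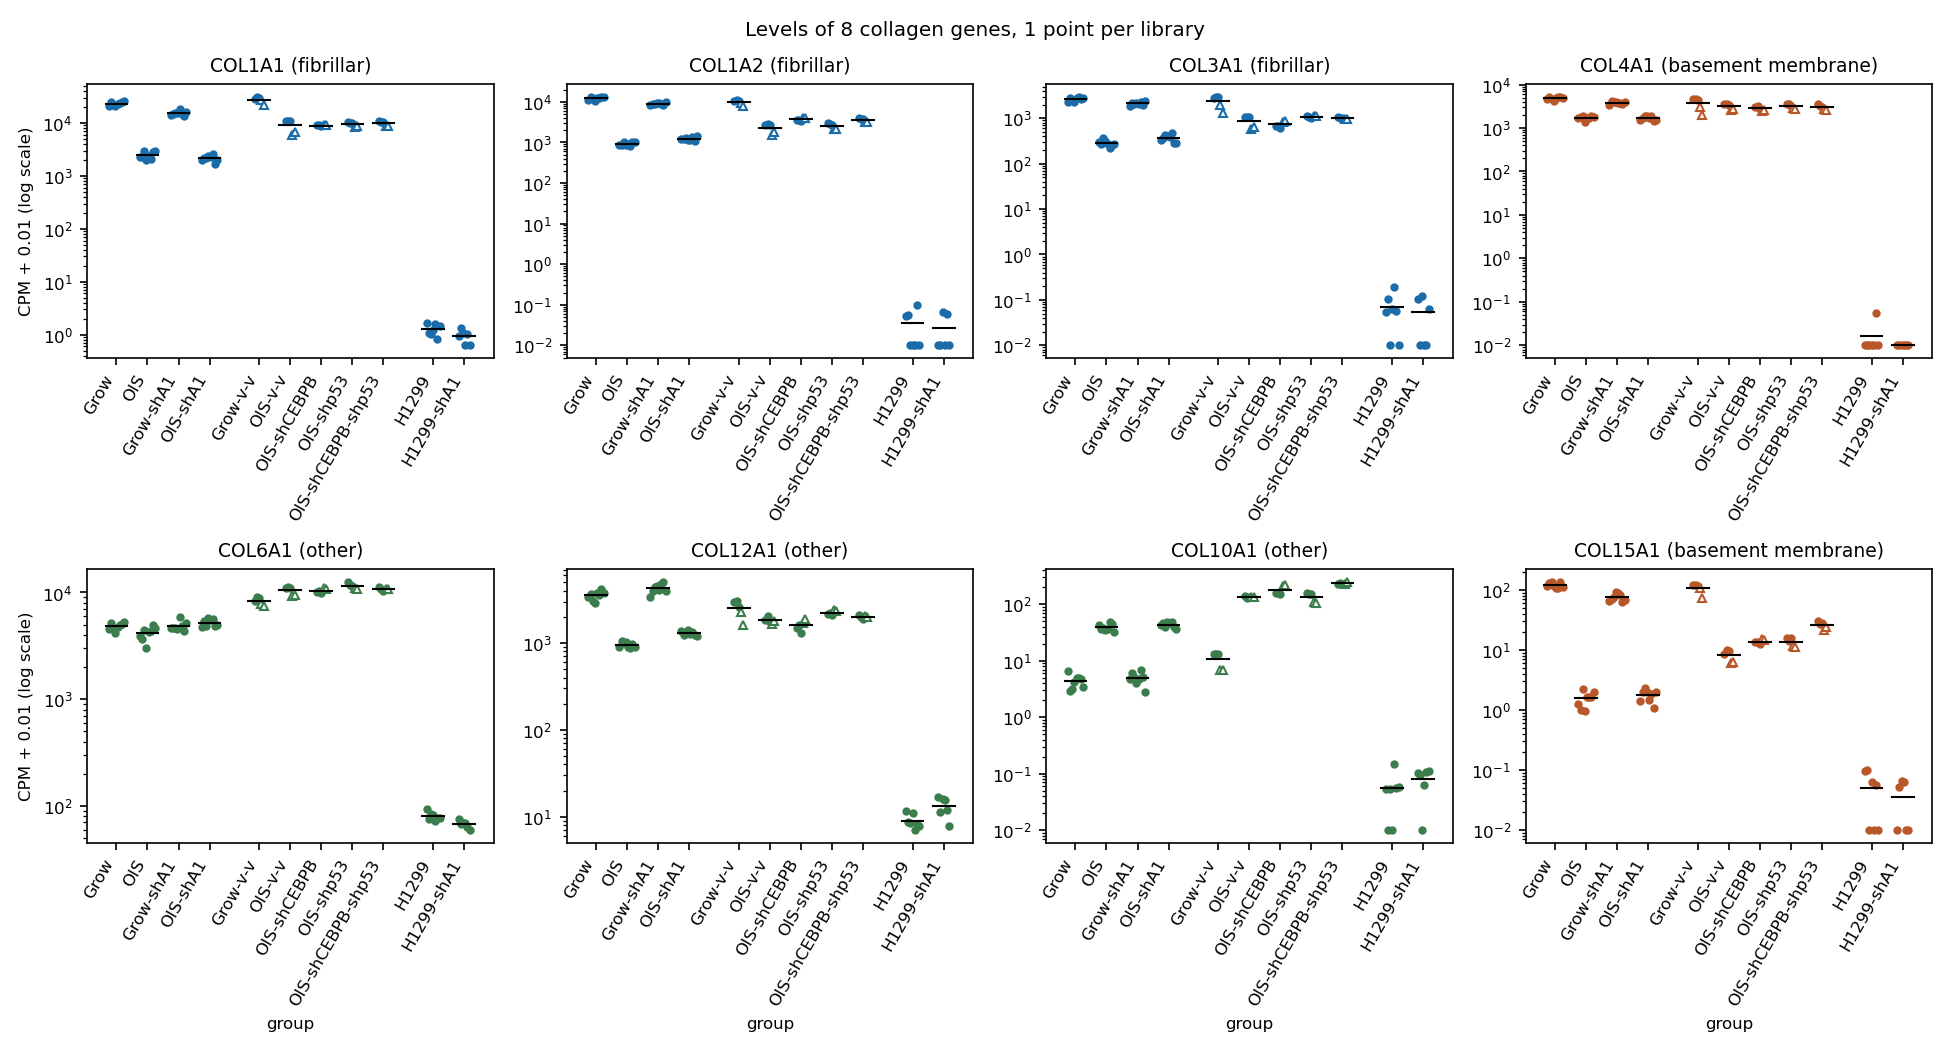
Levels of COL1A1, COL1A2, COL3A1, COL4A1, COL6A1, COL12A1, COL10A1 and COL15A1 in every library of the 11 groups, as CPM plus 0.01 on a log axis. Circles are libraries (open triangles are libraries 4 and 5 of the second experiment) and bars are group means. COL15A1 has a mean of 120 CPM in Grow and 1.55 CPM in OIS, COL10A1 of 4.38 CPM and 39.4 CPM, and COL6A1 stays between 3038 and 5938 CPM in the first experiment.

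The next question was how the knock-down of HMGA1 changes collagen genes in growing cells. The comparison of Grow-shA1 with Grow used the same Grow libraries as that of OIS with Grow, so the values of the comparisons are given side by side only. Again 29 collagens were tested, and 5 were higher and 12 lower, with 14.8% of all genes tested higher and 15.1% lower. The median log2 fold change was -0.10 over the collagens and 0.01 over all genes. The ranges of 9 collagens did not overlap, as for 7.64% of all genes tested. Of the fibrillar class 6 of 9 fell and the other 3 did not pass, of the basement membrane class 3 rose and 3 fell, and of the other class 2 rose and 3 fell. HRAS was at 1538 to 1778 CPM in Grow and 1669 to 2233 CPM in Grow-shA1 (log2 fold change 0.20, edgeR adjusted p = 0.0041). Its part in the changes of the collagens was not tested.

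COL4A6 had the largest change. This type IV chain was between 31.6 and 42.3 CPM in Grow (median 38.7) and between 139 and 170 CPM in Grow-shA1 (median 149), a 4.07-fold rise (log2 fold change 2.03, SE 0.06, edgeR adjusted p = 3.1e-19). Its neighbour COL4A5, whose promoter stretch faces that of COL4A6 above, was between 143 and 186 CPM in Grow and between 258 and 334 CPM in Grow-shA1. The log2 fold change of COL4A5 was 0.76 (SE 0.05, edgeR adjusted p = 3.78e-11), and the ranges of neither gene overlapped. The chains of the common type IV network did not follow. COL4A1 fell, with a log2 fold change of -0.33 (SE 0.05, edgeR adjusted p = 4.16e-06), and COL4A2 did not pass (-0.06, SE 0.04).

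Type I collagen was lower with shA1 in growing cells. COL1A1 was between 13540 and 18470 CPM in Grow-shA1 (median 15030), below all 8 Grow libraries (log2 fold change -0.60, SE 0.06, edgeR adjusted p = 1.27e-08). COL1A2 was between 8456 and 9661 CPM (median 9044), with -0.43 (SE 0.05, edgeR adjusted p = 6.88e-08). COL5A1 had a log2 fold change of -0.46 and COL3A1 of -0.31, and the ranges of COL3A1 overlapped. COL5A2 did not pass (-0.10, SE 0.06, edgeR adjusted p = 0.221), and neither did COL6A1, COL6A2 and COL6A3 (0.01, 0.10 and 0.10). COL12A1 rose with a log2 fold change of 0.28 (SE 0.07, edgeR adjusted p = 0.00442).

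Some collagens of lower abundance moved more than type I. COL11A1 fell from 14.6 ± 1.51 CPM (SD, n = 8) to 5.65 ± 1.81 CPM, a log2 fold change of -1.36 (SE 0.13, edgeR adjusted p = 9.73e-09). COL16A1 fell from 157 ± 7.60 CPM to 93.8 ± 11 CPM (log2 fold change -0.74), and COL15A1 from 120 ± 11.9 CPM to 75.6 ± 10.7 CPM (-0.66), each with no overlap. COL8A2, at 1.99 CPM in Grow and 1.06 CPM in Grow-shA1, fell with overlapping ranges. The myofibroblast markers summed to 764 to 1060 CPM in Grow-shA1 against 1230 to 1520 CPM in Grow, and their part in these falls was not tested.

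In senescent cells the knock-down of HMGA1 went with more rises than falls. Of 29 collagens tested in OIS-shA1 against OIS, 13 were higher and 6 lower, with 18.8% of all genes higher and 17.1% lower. The median log2 fold change was 0.13 over the collagens and -0.00 over all genes. For 5 of the 29 the groups did not overlap, as for 9.29% of all genes tested. The myofibroblast markers, by contrast, summed to 71.0 to 116 CPM in OIS and 48.7 to 67.8 CPM in OIS-shA1, without overlap, and their part in the result was not tested. HRAS was at 1071 to 1720 CPM in OIS and 1188 to 1393 CPM in OIS-shA1 (log2 fold change -0.21, edgeR adjusted p = 0.0139). Its part was not tested either. Of the fibrillar class 4 of 9 rose and 3 fell, of the basement membrane class 4 of 7 rose and the other 3 did not pass, and of the other class 5 of 13 rose and 3 fell. Scaled by library size without TMM factors, 11 collagens were higher and 8 lower, with 1553 of all 13327 genes higher and 4037 lower. Without OIS replicate 4, the library of low depth, 13 collagens were higher and 8 lower, with 2629 of 13431 genes higher and 2526 lower.

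The rises with no overlap were those of COL4A6, COL8A1, COL7A1, COL12A1 and COL1A2. COL4A6 was between 28.1 and 51.8 CPM in OIS (median 43.3) and between 63.4 and 81.1 CPM in OIS-shA1 (median 72.7), with a log2 fold change of 0.75 (SE 0.07, edgeR adjusted p = 1.55e-09). COL8A1 was between 52.4 and 66.0 CPM in OIS and between 88.4 and 108 CPM in OIS-shA1, with a log2 fold change of 0.70 (SE 0.05, edgeR adjusted p = 5.06e-11). COL7A1, the chain of the anchoring fibrils that fasten epithelium to the dermis, had a log2 fold change of 0.55. COL12A1 had a log2 fold change of 0.45 (SE 0.05, edgeR adjusted p = 8.07e-09) and COL1A2 of 0.42 (SE 0.06, edgeR adjusted p = 4.32e-06), from 924 ± 95.0 CPM to 1236 ± 124 CPM (SD, n = 8).

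COL1A1 did not rise with COL1A2. It was between 1961 and 2903 CPM in OIS and between 1640 and 2541 CPM in OIS-shA1, with a log2 fold change of -0.19 (SE 0.08, edgeR adjusted p = 0.0649). Leaving out OIS replicate 2, 4 or 6 or OIS-shA1 replicate 4 or 6 brought its edgeR adjusted p to between 0.0171 and 0.0476, with log2 fold changes from -0.23 to -0.21. COL3A1 (log2 fold change 0.38), COL5A2 (0.29), COL6A1 (0.33), COL6A2 (0.30) and COL4A2 (0.26) rose with overlapping ranges, while COL4A1 (-0.01) and COL6A3 (0.00) did not pass. COL5A1 fell (-0.34, SE 0.07, edgeR adjusted p = 0.00016). COL17A1 fell from 2.31 to 1.16 CPM (log2 fold change -1.05, edgeR adjusted p = 9.46e-05), COL11A1 from 7.77 to 5.63 CPM and COL16A1 from 53.5 to 42.2 CPM. The fall of COL9A3, at about 1 CPM, had an edgeR adjusted p of 0.0416 and was lost without any of OIS replicates 2, 3, 5, 7 and 8 and OIS-shA1 replicates 1, 2, 4 and 7 (0.0543 to 0.0933).

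Whether the effect of shA1 differs between senescent and growing cells was tested with an interaction term over all 4 groups. Of 29 collagens, 12 had a higher log2 fold change with shA1 in OIS than in Grow and 3 a lower one, with 12.2% of all genes tested higher and 11.4% lower. The median difference was 0.27 over the collagens and -0.01 over all genes. With library sizes alone, which moved the median of all genes by -0.115, these counts were 10 and 6. Of all 13903 genes tested, 888 were higher and 3456 lower with that scaling. In the fibrillar class 6 of 9 had a higher log2 fold change with shA1 in OIS, which can also be a smaller fall, and the other 3 did not pass. The fibrillar members were COL1A1 (difference of log2 fold changes 0.41, edgeR adjusted p = 0.00405), COL1A2 (0.85, SE 0.08, edgeR adjusted p = 2.27e-10), COL3A1 (0.69), COL5A2 (0.39), COL5A3 (0.47) and COL11A1 (0.88). HRAS itself had a difference of -0.41 (edgeR adjusted p = 0.000552), and its part in these differences was not tested.

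Outside the fibrillar class, COL8A1 had the largest positive difference (0.98, SE 0.09, edgeR adjusted p = 1.49e-10). COL4A1 and COL4A2 had the same difference of 0.32. For the other pair of type IV neighbours the effect was smaller in OIS, with a difference of -1.28 for COL4A6 (SE 0.09, edgeR adjusted p = 8.58e-14) and of -0.40 for COL4A5 (SE 0.08, edgeR adjusted p = 0.000298). COL17A1 also had a negative difference (-1.63). COL5A1, COL6A2, COL6A3 and COL12A1 did not pass, with differences from -0.09 to 0.21. COL6A2 passed without Grow-shA1 replicate 5 (0.26, edgeR adjusted p = 0.0497). With library sizes alone the calls of COL4A2 (0.21, edgeR adjusted p = 0.08) and COL6A1 (0.20, edgeR adjusted p = 0.098) were lost. COL6A3, COL13A1 and COL27A1 passed as lower there.

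**Figure D3:**
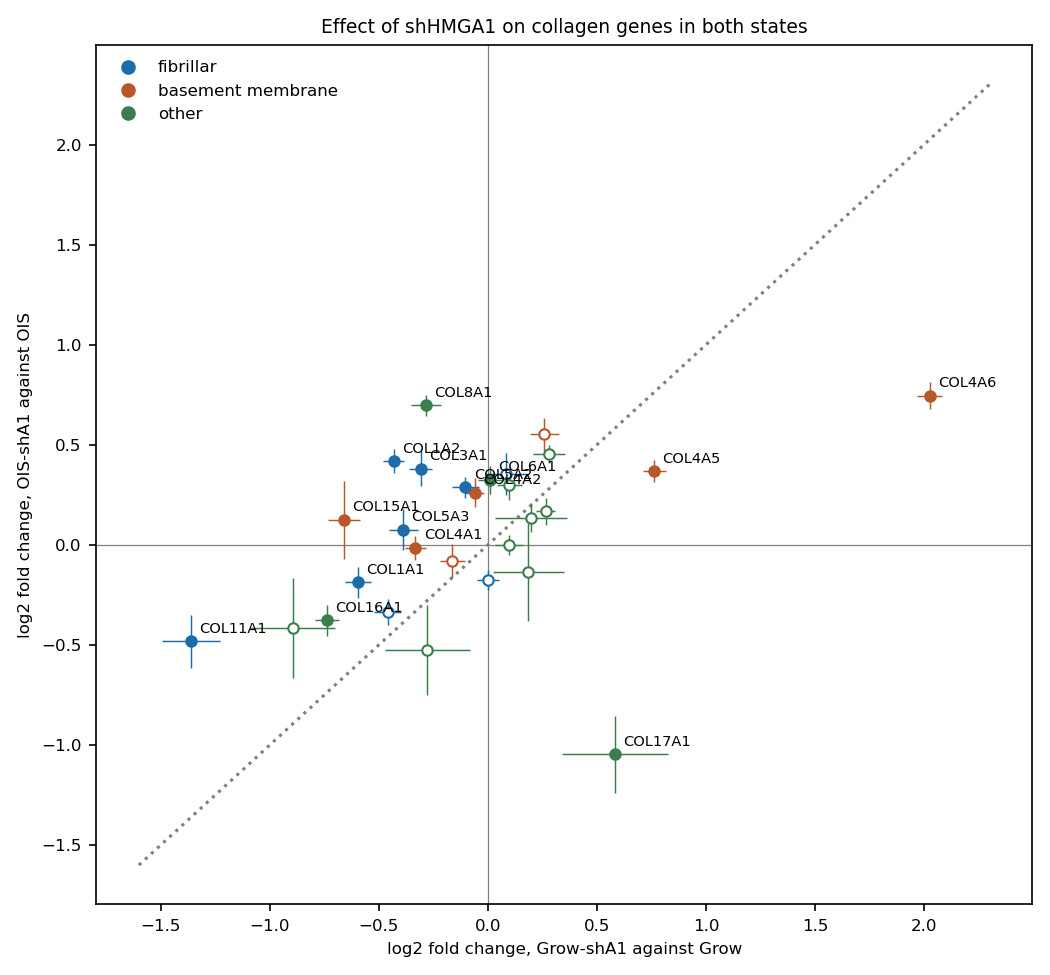
Log2 fold change with shA1 in growing cells (horizontal axis, Grow-shA1 against Grow) and in senescent cells (vertical axis, OIS-shA1 against OIS) for the collagens tested in both, with standard errors as bars. Filled, named points passed the test of the difference and open points did not, and the dotted line marks equal effects. COL1A2 lies at -0.43 and 0.42, COL8A1 at -0.28 and 0.70, and COL4A6 at 2.03 and 0.75.

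The second experiment compared senescent with growing fibroblasts again, in libraries of its own. Within each of its 5 groups, libraries 1 to 3 resembled each other and so did libraries 4 and 5. The chi-square statistic per gene between libraries of 1 group was 1.94 to 8.28 for 19 pairs within these sets (23.7 for Grow-v-v libraries 4 and 5) and 12.9 to 79.9 for the 30 pairs between them. The labels name no batch, and the sets were noticed in the data. COL1A1 was at 10820, 11110 and 10750 CPM in OIS-v-v libraries 1 to 3 and at 5842 and 6882 CPM in libraries 4 and 5, whereas its level in OIS-shCEBPB was 9002, 9043, 8591, 9048 and 8987 CPM. Values within the sets are therefore given beside the results they bear on, where libraries 1 to 3 are called the first set and libraries 4 and 5 the second.

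In OIS-v-v against Grow-v-v, 30 collagens were tested, 11 were lower and 5 higher, with 23.2% of all genes lower and 22.7% higher. The median log2 fold change was -0.36 over the collagens and 0.01 over all genes, and the ranges did not overlap for 13 collagens and for 35% of all genes. The first set alone gave 20 lower and 7 higher, with 33.8% of all genes lower and 33% higher there. In the second set alone 12 were lower and 6 higher, with 20.3% and 20.2% of all genes. In both sets 15 of 30 collagens passed in the same direction, and so did 4103 of 13120 genes. Of the fibrillar class 6 of 10 fell and COL27A1 rose, of the basement membrane class 2 of 7 fell, and of the other class 4 of 13 rose and 3 fell. In this experiment the collagens made up 7.86% of counts in Grow-v-v and 5.10% in OIS-v-v.

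COL1A1 was at 28880, 31000, 29740, 27070 and 21670 CPM in Grow-v-v, with a log2 fold change of -1.6 in OIS-v-v (SE 0.19, edgeR adjusted p = 2.39e-05). COL1A2 was at 10350, 10880, 10750, 9528 and 7842 CPM in Grow-v-v and at 2771, 2778, 2764, 1505 and 1822 CPM in OIS-v-v, a log2 fold change of -2.07 (SE 0.18, edgeR adjusted p = 2.15e-06). Each OIS-v-v library lay below each Grow-v-v library for both chains. COL3A1 (log2 fold change -1.42) and COL5A2 (-1.69) fell without overlap, and COL5A1 did not pass (-0.31, SE 0.19, edgeR adjusted p = 0.202). COL5A1 passed as lower within each set (-0.19, edgeR adjusted p = 0.00151, and -0.59, edgeR adjusted p = 0.0148) and with the set as a term (-0.34, edgeR adjusted p = 0.0172).

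COL15A1 again had the largest fall. It was at 119, 122, 116, 107 and 73.4 CPM in Grow-v-v and at 8.69, 9.86, 9.66, 5.95 and 6.25 CPM in OIS-v-v, a 13.2-fold fall (log2 fold change -3.72, SE 0.18, edgeR adjusted p = 2.05e-08). COL16A1 had a log2 fold change of -1.65, and COL14A1 fell from 3.33 to 0.519 CPM (-2.67). COL10A1 was at 13.3, 13.1, 13.3, 6.98 and 6.76 CPM in Grow-v-v and at 139, 131, 136, 133 and 136 CPM in OIS-v-v. This was a 12.7-fold rise (log2 fold change 3.66, SE 0.19, edgeR adjusted p = 3.06e-08), with summed chondrocyte markers of 37.5 to 48.2 CPM in Grow-v-v and 125 to 148 CPM in OIS-v-v, almost all of it SOX9. The contractile markers summed to 1700 to 2420 CPM in Grow-v-v and 171 to 370 CPM in OIS-v-v. The part of either list in these changes was not tested.

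The type VI and type IV chains behaved differently from the fibrillar class. COL6A1 was at 8400, 9031, 8850, 7825 and 7498 CPM in Grow-v-v and at 11050, 11360, 10960, 9305 and 9509 CPM in OIS-v-v. It rose with a log2 fold change of 0.34 (SE 0.10, edgeR adjusted p = 0.0146) and COL6A2 with 0.42 (SE 0.11, edgeR adjusted p = 0.0067), both without overlap. Neither passed in the second set alone (0.30 and 0.33, edgeR adjusted p = 0.146 and 0.115). COL4A1 (-0.25), COL4A2 (-0.09) and COL6A3 (-0.32) did not pass, and COL12A1 fell (-0.45, SE 0.15, edgeR adjusted p = 0.0254). Without Grow-v-v replicate 5, COL4A1 (-0.41) and COL6A3 (-0.43) passed as lower (edgeR adjusted p = 0.0343 and 0.00461). The COL12A1 call was lost without Grow-v-v replicate 1, 2 or 3 or OIS-v-v replicate 3 or 4 (edgeR adjusted p = 0.0501 to 0.0644). COL4A5 and COL4A6 passed in opposite directions in the sets, with log2 fold changes of -0.32 and -0.20 in the first and 0.47 and 0.60 in the second.

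With the replicate number as a block, COL6A3 passed as lower (log2 fold change -0.30, edgeR adjusted p = 0.0473), COL8A1 passed as lower (-0.88) and COL11A1 and COL24A1 as higher (0.51 and 0.50), while the call of COL7A1 was lost (edgeR adjusted p = 0.0527).

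The comparisons of senescent with growing cells in the first and in the second experiment share no library. Of 29 collagens tested in both, 24 had the same sign (82.8%), against 79.1% of all 12792 genes tested in both. Altogether 10 were called lower and 4 higher in both experiments, and COL6A1 was called lower in the first and higher in the second. The levels of the tables were normalised separately, so only the directions and not the sizes of the changes are set side by side.

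The knock-down of CEBPB, which encodes the transcription factor C/EBPbeta, OIS-shp53 and both together were then compared with OIS-v-v to find which collagens change with either shRNA, or both, in senescent cells. All 3 knock-down groups share the same OIS-v-v libraries, so their values are given side by side without a correlation. HRAS was at 1047 to 1319 CPM in OIS-v-v and 1024 to 1085 CPM in OIS-shp53. It was lower in OIS-shCEBPB (796 to 904 CPM) and OIS-shCEBPB-shp53 (633 to 682 CPM), both without overlap with OIS-v-v. The part of HRAS in the changes of the collagens was not tested. In OIS-shCEBPB, 7 of 30 collagens tested were higher and 4 lower, with 9.09% of all genes higher and 8% lower. The median log2 fold change was 0.03 over the collagens and -0.00 over all genes, and the groups did not overlap for 12 collagens and for 15% of all genes. Of the fibrillar class 3 rose and 1 fell, of the basement membrane class 1 rose and the others did not pass, and of the other class 3 rose and 3 fell. The first set alone gave 8 higher and 13 lower, with 32.6% of all genes called in either direction. In the second set alone 16 were higher and 5 lower, with 24.6% of all genes called.

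COL8A1 had the largest change. It was at 281, 280, 261, 87.4 and 88.8 CPM in OIS-v-v and at 56.1, 56.7, 49.6, 31.4 and 31 CPM in OIS-shCEBPB, a 4.45-fold fall (log2 fold change -2.15, SE 0.37, edgeR adjusted p = 0.00155). No OIS-shCEBPB library reached an OIS-v-v library, and within the sets the log2 fold change was -2.35 and -1.51. COL9A3 (-1.29), COL24A1 (-0.61) and COL16A1 (-0.44) also fell without overlap, and all 3 passed in both sets.

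Among the fibrillar chains COL1A2, COL5A2 and COL27A1 (0.42) rose. COL1A2 was at 3623, 3636, 3423, 3959 and 3963 CPM in OIS-shCEBPB, above all OIS-v-v libraries, with a log2 fold change of 0.67 (SE 0.16, edgeR adjusted p = 0.013). COL5A2 was at 656, 685, 613, 662 and 663 CPM against 495, 519, 496, 361 and 363 CPM in OIS-v-v, with a log2 fold change of 0.55 (SE 0.11, edgeR adjusted p = 0.00374). COL1A1 (-0.03), COL3A1 (-0.27) and COL5A1 (-0.12) did not pass, and each of them passed in opposite directions within the sets. COL1A1 had a log2 fold change of -0.30 in the first set and 0.49 in the second, COL3A1 of -0.71 and 0.45, and COL5A1 of -0.29 and 0.22.

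The contractile markers summed to 336 to 527 CPM in OIS-shCEBPB and 171 to 370 CPM in OIS-v-v, and their part in these changes was not tested. COL15A1, which was low in OIS-v-v, was higher with shCEBPB, at 13.5, 13.4, 12.5, 14.9 and 14.4 CPM (log2 fold change 0.76, SE 0.14, edgeR adjusted p = 0.00309). COL10A1, which was high in OIS-v-v, was higher still, at 156, 160, 150, 209 and 223 CPM (0.41, SE 0.10, edgeR adjusted p = 0.0175). The chondrocyte markers were lower there, with sums of 91.7 to 119 CPM against 125 to 148 CPM in OIS-v-v, and their part was not tested. COL13A1 rose by 0.34. COL17A1 rose from 0.992 to 1.73 CPM (0.80), a call that was lost in the first set alone and without OIS-shCEBPB replicate 2 or 5 or OIS-v-v replicate 2 (edgeR adjusted p = 0.052 to 0.0925). COL6A1, COL6A2, COL6A3, COL4A1, COL4A2 and COL12A1 did not pass, with log2 fold changes from -0.20 to -0.01. COL6A1 and COL7A1 passed in opposite directions within the sets, COL6A1 with -0.15 in the first set and 0.20 in the second. With the replicate number as a block, COL4A1 (-0.17, edgeR adjusted p = 0.0167) and COL4A2 (-0.20, edgeR adjusted p = 0.0037) passed as lower and COL4A5, COL5A3 and COL11A1 as higher.

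Of the 3 knock-down groups, OIS-shp53 had the fewest called genes in the fit over both sets of libraries. In the first set alone it did not, as 34% of all genes were called with shp53 and 32.6% with shCEBPB. Of 29 collagens tested, 3 were higher by edgeR, with 2.47% of all genes higher and 1.97% lower, and 0 were lower, where 0 had an unadjusted p under 0.05 and DESeq2 called 0. The median log2 fold change was 0.16 over the collagens and -0.00 over all genes. COL15A1 was at 15.6, 14.3, 15.8, 11.6 and 11 CPM (log2 fold change 0.76, SE 0.17, edgeR adjusted p = 0.0245), COL12A1 at 2133, 2216, 2093, 2368 and 2352 CPM (0.30, SE 0.07, edgeR adjusted p = 0.0331) and COL13A1 at 115 ± 3.56 CPM (SD, n = 5) against 95.5 ± 4.05 CPM (0.26, edgeR adjusted p = 0.00653). All 3 lay above the OIS-v-v libraries without overlap, where 7.29% of all genes did not overlap.

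The count of 3 depended on the libraries and on the fit. It was 1 (COL13A1) without OIS-shp53 replicate 1, 2 or 3 or OIS-v-v replicate 1, where COL15A1 had an edgeR adjusted p of 0.0543 to 0.071. The COL13A1 call was lost in the second set alone (0.22, edgeR adjusted p = 0.0772). In both sets 3 of 29 collagens (COL6A1, COL12A1 and COL15A1) passed in the same direction, and so did 514 of 13168 genes. The call of COL12A1 was lost without any of the 8 libraries other than OIS-v-v replicate 2 or 4 (edgeR adjusted p = 0.0522 to 0.0891). With the replicate number as a block the count was 12, adding COL5A2, COL5A3, COL6A1, COL6A3, COL7A1, COL9A2, COL9A3, COL11A1 and COL16A1. With the block 22.7% of all genes were called in either direction, against 4.44% without it. The fibrillar chains COL1A1 (0.11), COL1A2 (0.17), COL3A1 (0.36) and COL5A1 (0.04) did not pass with the block either. With the set as a term, COL1A2 (0.16, edgeR adjusted p = 0.0449) and COL3A1 (0.35, edgeR adjusted p = 0.0175) passed as higher. Both also passed as higher in the second set alone (0.36 and 0.86) but not in the first. Within the sets, COL1A1 had a log2 fold change of -0.11 in the first and 0.43 in the second, COL5A1 of -0.18 and 0.36, and COL10A1 of 0.18 and -0.31, all of which passed. The fit without a block gave log2 fold changes between 0.03 and 0.22 for COL4A1, COL4A2, COL6A1, COL6A2 and COL6A3, none of which passed.

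In OIS-shCEBPB-shp53, 11 of 30 collagens were higher and 3 lower, with 17.1% of all genes higher and 16.5% lower. Over the collagens the median log2 fold change was 0.14, and over all genes -0.01. Of the fibrillar class 5 rose and 1 fell, of the basement membrane class 1 rose and the others did not pass, and of the other class 5 rose and 2 fell. For 11 of the 30 collagens the ranges did not overlap, as for 24.1% of all genes. COL15A1 was at 30.1, 27.4, 27.8, 21.6 and 24 CPM against 5.95 to 9.86 CPM in OIS-v-v, a 3.21-fold rise (log2 fold change 1.68, SE 0.15, edgeR adjusted p = 6.36e-06), and still below the 73.4 to 122 CPM of Grow-v-v. COL10A1 was at 233, 241, 229, 227 and 252 CPM (0.80, SE 0.05, edgeR adjusted p = 1.95e-07), above the level of every OIS-v-v library. COL11A1 rose with overlapping ranges (1.04, SE 0.25, edgeR adjusted p = 0.00678).

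COL8A1 was at 43.1, 46.6, 46.7, 19.6 and 20.5 CPM, a fall of 2.51 on the log2 scale (SE 0.40, edgeR adjusted p = 0.000533), and COL24A1 (-0.88) and COL16A1 (-0.34) were the other collagens that fell. In the fibrillar class COL1A2 (0.61), COL5A2 (0.77) and COL5A3 (0.82) rose without overlap, whereas COL1A1 (0.09), COL3A1 (0.18) and COL5A1 (-0.04) did not pass. COL4A1 (-0.07), COL4A2 (-0.13), COL6A1 (0.03), COL6A2 (-0.05), COL6A3 (0.09) and COL12A1 (0.13) did not pass either, and COL12A1 passed without OIS-v-v replicate 2 (0.18, edgeR adjusted p = 0.0421). Within the sets, 10 of 30 collagens and 3013 of 13200 genes passed in the same direction in both, and COL5A1 passed in opposite directions (-0.19 and 0.30). In the second set alone COL1A1 (0.43), COL3A1 (0.63), COL6A1 (0.18), COL6A3 (0.18) and COL12A1 (0.23) passed as higher. In the first set alone COL4A2 and COL6A2 (both -0.15) passed as lower. The COL16A1 call was lost in the second set alone (-0.18, edgeR adjusted p = 0.113) and with library sizes alone (-0.23, edgeR adjusted p = 0.103). With the replicate number as a block COL4A5 passed as higher.

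Whether both knock-downs together differ from the sum of the single ones was tested with an interaction term over the 4 senescent groups. By edgeR, 0 of 31 collagens passed in either direction, with 0.0216% of all genes higher and 0.0216% lower. An unadjusted p under 0.05 was reached by 1 collagen in each direction, and DESeq2 called 0. In the first set 7 collagens passed as higher and 1.43% of all genes (1.89% lower), among them COL1A1 (0.35), COL3A1 (0.65) and COL10A1 (0.41), and in the second set 8 passed as lower, with 1.3% of all genes, among them COL1A1 (-0.49), COL3A1 (-0.69) and COL1A2 (-0.65). There COL10A1 alone passed as higher (0.46), with 0.825% of all genes. These examples were chosen after their values were seen.

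**Figure D4:**
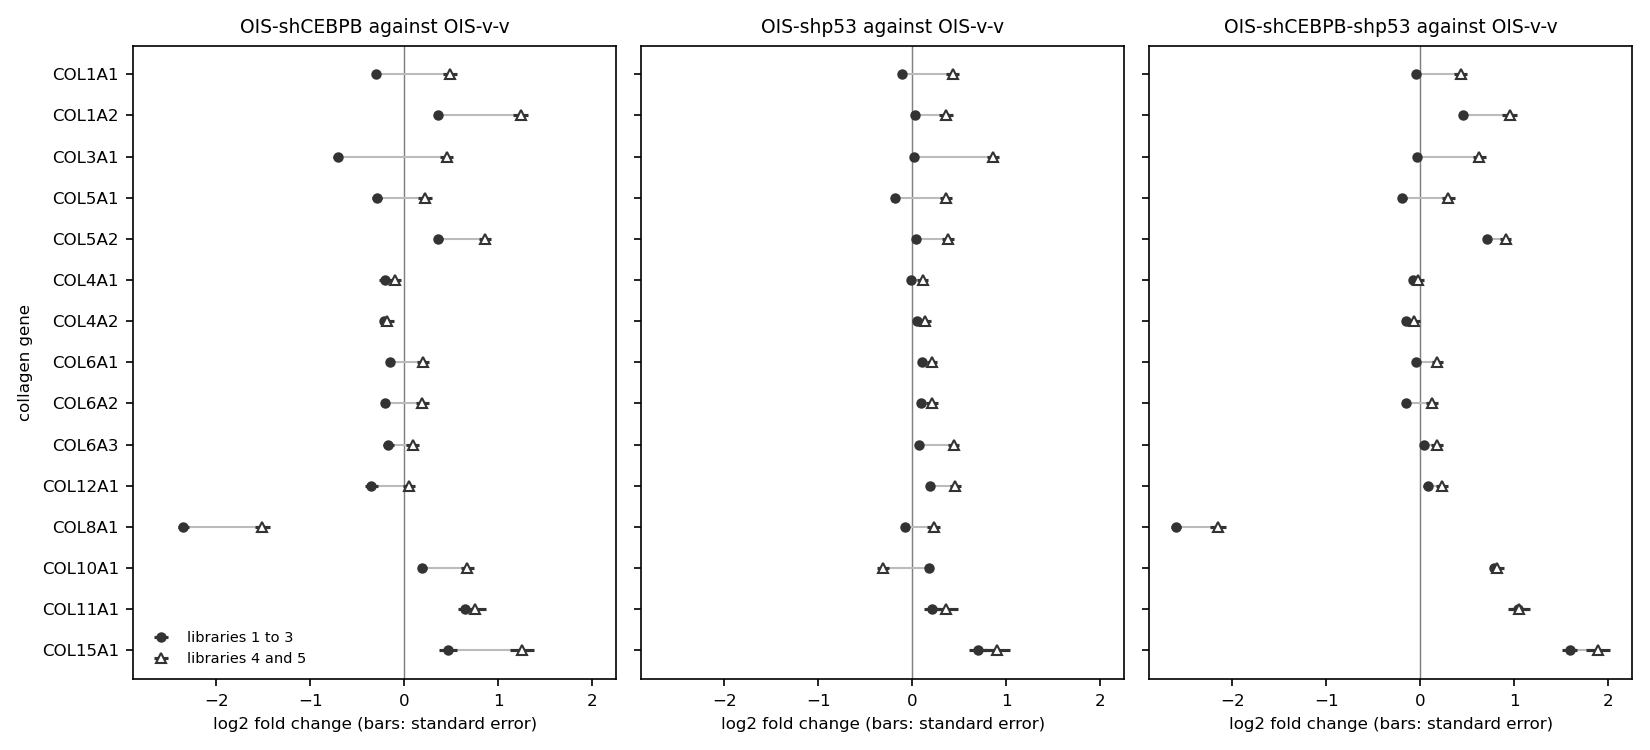
Log2 fold change of 15 collagens in the 3 knock-down groups (OIS-shCEBPB, OIS-shCEBPB-shp53 and OIS-shp53) against OIS-v-v, computed within libraries 1 to 3 (circles) and within libraries 4 and 5 (triangles), with standard errors as bars. COL8A1 with shCEBPB lies at -2.35 and -1.51, on 1 side of zero in both sets, while COL1A1 lies at -0.30 and 0.49 and COL3A1 at -0.71 and 0.45.

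In H1299 the collagens made up 0.0325% ± 0.00357 (SD, n = 7) of counts, and 14 had a mean of at least 1 CPM. In CPM, without scaling by exon length, the highest levels were those of COL18A1 (128 ± 14.6 CPM), the source of endostatin, and of COL6A1 (79.9 ± 6.83 CPM) and COL6A2 (49.8 ± 5.17 CPM, SD, n = 7). The order per kb of exon differed from this. COL18A1 has 8.57 kb of exon and COL6A1 5.05 kb, so that COL6A1 had the higher mean per kb, with overlapping ranges. COL18A1 shares 881 exonic bp with SLC19A1 on the other strand, and the counting did not use strand. COL1A1 had a mean of 1.25 CPM, and COL1A2 and COL3A1 had medians of 0 and 0.0456 CPM. COL4A1 and COL4A2 had a median of 0 CPM.

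With shA1 in H1299, 3 of 16 collagens tested were higher and 2 lower, with 8.65% of all genes higher and 6.93% lower. Over the collagens the median log2 fold change was 0.08, and over all genes 0.005. The ranges did not overlap for 1 collagen and for 5.21% of all genes. This collagen was COL9A3, a chain of the cartilage collagen type IX, which was between 11.3 and 12.9 CPM in H1299 (median 11.7) and between 3.68 and 5.27 CPM in H1299-shA1 (median 4.49). It fell 2.61-fold (log2 fold change -1.39, SE 0.08, edgeR adjusted p = 4.02e-10). The chondrocyte markers summed to 201 to 261 CPM in H1299 and 194 to 218 CPM in H1299-shA1, nearly all of it SOX9, and their part in the fall was not tested.

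COL6A1 was between 71.9 and 92.8 CPM in H1299 (median 77.8) and between 59.3 and 75.1 CPM in H1299-shA1 (median 68.5), with overlapping ranges and a log2 fold change of -0.25 (SE 0.06, edgeR adjusted p = 0.00778). COL6A2 did not pass (0.07, SE 0.09). COL12A1 rose from 8.97 ± 1.65 CPM (SD, n = 7) to 13.3 ± 3.44 CPM (SD, n = 6; log2 fold change 0.57, SE 0.15, edgeR adjusted p = 0.0122), and COL17A1 from 1.23 to 2.73 CPM (1.16, SE 0.28, edgeR adjusted p = 0.00818). The other rise was that of COL16A1, from 0.674 to 1.06 CPM. COL1A1 (-0.40), COL5A1 (-0.11) and COL5A2 (0.08) did not pass, and COL1A2, COL3A1, COL4A1, COL4A2 and COL6A3 were below the filter.

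**Figure D5:**
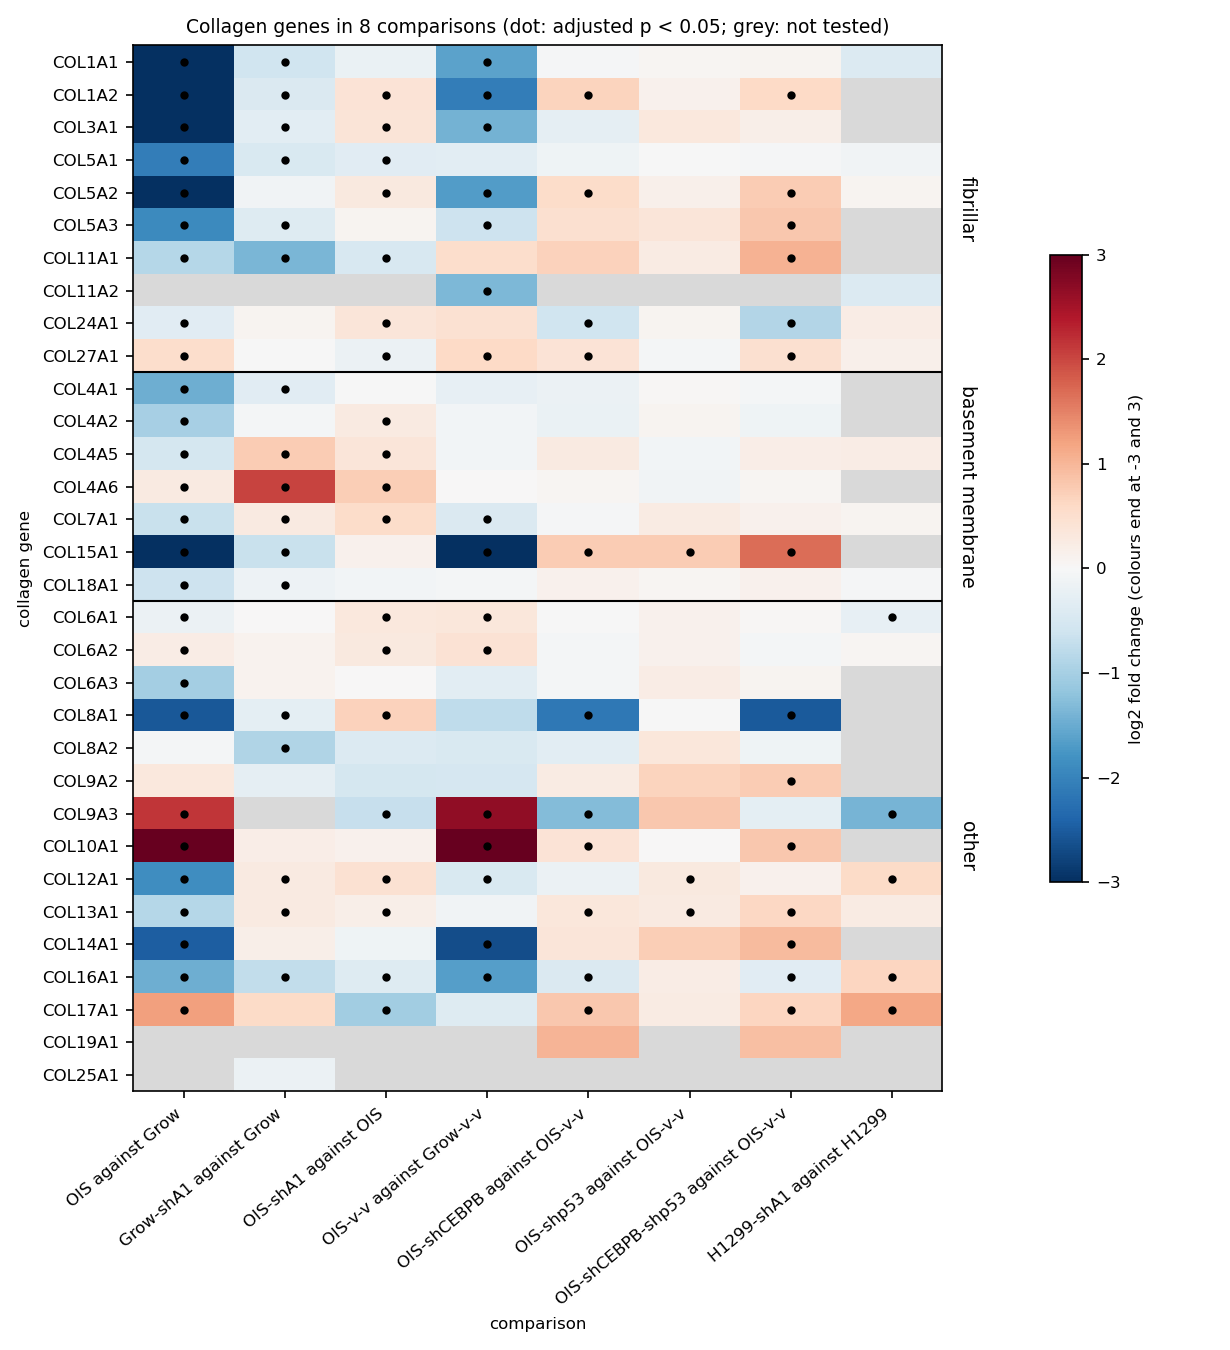
Log2 fold change of each collagen that was tested at least once (rows) in 8 comparisons of 2 groups (columns), on a colour scale that ends at -3 and 3. A dot marks an edgeR adjusted p under 0.05 and grey a gene that was below the filter. The fibrillar rows are mostly negative in OIS against Grow, where 8 of 9 fell, and of mixed sign in OIS-shA1 against OIS, where 4 of 9 rose and 3 fell.

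Chains that are built into the same collagen did not keep a fixed ratio. Per kb of exon, the ratio of COL1A1 to COL1A2 was 1.79 to 1.95 in Grow and 2.22 to 2.73 in OIS, with no overlap. It was 1.57 to 1.90 in Grow-shA1 and 1.40 to 2.0 in OIS-shA1, below every OIS library. In the second experiment the same ratio was 2.72 to 2.80 in Grow-v-v and 3.71 to 3.93 in OIS-v-v, again without overlap. It was 2.23 to 2.47 in OIS-shCEBPB and 2.57 to 2.74 in OIS-shCEBPB-shp53, below all OIS-v-v libraries, and 3.43 to 3.94 in OIS-shp53, which overlapped them. Type I collagen in its usual form holds COL1A1 and COL1A2 chains in a fixed proportion, and the ratios here are of RNA.

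The ratio of COL5A1 to COL5A2 was also higher in OIS than in Grow. It had a mean of 0.672 in Grow, 1.32 in OIS, 0.529 in Grow-shA1 and 0.860 in OIS-shA1, and the ranges of OIS (1.05 to 1.52) and OIS-shA1 (0.748 to 0.934) did not overlap. In the second experiment it was 0.844 in Grow-v-v, 2.14 in OIS-v-v, 1.37 in OIS-shCEBPB and 1.24 in OIS-shCEBPB-shp53. The ratio of COL4A1 to COL4A2 moved the other way, from 1.6 to 1.65 in Grow to 1.08 to 1.30 in OIS and 0.904 to 1.02 in OIS-shA1. That of COL4A5 to COL4A6 was 5.43 to 6.26 in Grow, 3.0 to 4.80 in OIS, 2.16 to 2.71 in Grow-shA1 and 2.39 to 2.94 in OIS-shA1. COL6A1 to COL6A2 went from 1.31 to 1.39 in Grow to 0.991 to 1.12 in OIS. In the second experiment the type IV and type VI ratios overlapped between Grow-v-v and OIS-v-v. COL4A1 to COL4A2 was 0.7517 to 1.148 in Grow-v-v and 0.8369 to 0.9721 in OIS-v-v. COL4A5 to COL4A6 was 4.151 to 5.33 in Grow-v-v and 3.751 to 4.446 in OIS-v-v. COL6A1 to COL6A2 was 1.14 to 1.196 in Grow-v-v and 1.049 to 1.19 in OIS-v-v. These ratios are descriptions of the libraries and were not tested.

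Collagen chains are hydroxylated and glycosylated in the endoplasmic reticulum, folded with the help of chaperones, trimmed of their propeptides outside the cell, crosslinked by lysyl oxidases, bound by receptors and finally cleaved by collagenases. The genes of these steps were counted in 6 lists, against the shares of all genes given above. In OIS against Grow, 14 of 14 genes of hydroxylation and glycosylation fell, and so did 7 of 10 chaperone and export genes, 4 of 5 propeptide genes, 5 of 5 crosslinking genes and 7 of 8 receptors. P4HA3, a subunit of prolyl 4-hydroxylase, fell from 22.8 to 27.1 CPM in Grow (median 25.1) to 1.43 to 2.75 CPM in OIS (median 2.12), a log2 fold change of -3.46 (SE 0.08, edgeR adjusted p = 2.97e-24). LOX, the lysyl oxidase that starts crosslinking, fell from 1058 to 1383 CPM (median 1243) to 86.7 to 106 CPM (median 94.4), a log2 fold change of -3.64 (SE 0.06, edgeR adjusted p = 9.33e-28). CREB3L1, a factor for collagen secretion, fell (-2.02), as did the procollagen N-proteinase ADAMTS2 (-2.09) and the collagen-binding integrin subunit ITGA1 (-1.36).

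Of the 4 cleavage genes tested in OIS against Grow, 2 rose and 1 fell, and in the other lists 0 to 2 genes rose. MMP1, the interstitial collagenase, was between 1378 and 2920 CPM in Grow (median 1876) and between 16400 and 21590 CPM in OIS (median 17940), a log2 fold change of 3.26 (SE 0.11, edgeR adjusted p = 3.05e-21). TMEM38B (1.69), ADAMTS3 (1.26) and ITGA2 (0.38) rose, and the gelatinase MMP2 fell (-0.40). In OIS-v-v against Grow-v-v, 5 of 5 crosslinking genes fell, the most LOXL1 (log2 fold change -1.67, SE 0.11, edgeR adjusted p = 2.01e-07), and 5 of 5 cleavage genes rose, with MMP1 at 2.65. There 3 of 14 hydroxylation and glycosylation genes fell, with P4HA3 at -2.64.

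The lists were then counted with shA1 in both states. In Grow-shA1, 4 of 5 crosslinking genes fell (LOX -0.71, SE 0.06, edgeR adjusted p = 2.11e-09), 6 of 14 hydroxylation and glycosylation genes fell and 2 rose, and 4 of 4 cleavage genes rose (MMP1 1.75, SE 0.12). In OIS-shA1, LOX rose (0.60, SE 0.06, edgeR adjusted p = 1.2e-08) and 3 of 5 crosslinking genes fell, 6 of 14 hydroxylation and glycosylation genes rose and 2 fell, and 5 of 6 cleavage genes rose. The log2 fold change of LOX with shA1 was higher in OIS than in Grow by 1.31 (SE 0.10, edgeR adjusted p = 1.07e-13). That of MMP1 was lower, with a difference of -0.98 (SE 0.14, edgeR adjusted p = 5.09e-07). ADAMTS3, a propeptide protease, fell in both states (-1.21 in Grow and -1.28 in OIS).

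In OIS-shCEBPB, P4HA3 rose from 3.67 to 9.39 CPM (log2 fold change 1.35, SE 0.12, edgeR adjusted p = 1.24e-05) and LOXL1 from 49.1 to 80.5 CPM (0.71, SE 0.10, edgeR adjusted p = 0.00037), while MMP1 was between 16730 and 18400 CPM in OIS-v-v and between 7774 and 8719 CPM in OIS-shCEBPB (-1.10, SE 0.07, edgeR adjusted p = 8.36e-07). The same 3 genes moved in the same directions in OIS-shCEBPB-shp53 (1.34, 0.71 and -0.92). In OIS-shp53 only 2 of 5 cleavage genes passed in these lists, with MMP9 at 2.72. With the replicate number as a block, 4 in place of 1 of the 5 crosslinking genes rose in OIS-shCEBPB and also in OIS-shCEBPB-shp53. In OIS-shp53 with the block, 4 of 5 cleavage genes rose, and 4 of 8 receptors rose and 1 fell. There 2 of 14 hydroxylation and glycosylation genes rose and 2 fell, 1 of 11 chaperone and export genes rose and 1 fell, and 1 of 5 crosslinking genes fell. Over all genes, the block called 31.9% with shCEBPB, 43.4% with both and 22.7% with shp53. In H1299-shA1, 4 of 6 cleavage genes rose, with MMP1 at 0.89 (SE 0.18, edgeR adjusted p = 0.00248).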

How the data were processed

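RNA-seq counts per gene were analysed in 70 libraries. The authors used STAR with the hg19 genome for alignment and featureCounts with GENCODE exons for counting, and deposited the raw counts in 3 tables. Per the file headers strand was not used in 2 tables, and the other has no program header. Genes that share reads or overlap are therefore uncertain. The kits were stranded mRNA kits.

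From the deposited counts, genes were filtered with filterByExpr (minimum count 10) and tested with edgeR 4.0.16 (R 4.3.3, TMM factors, quasi-likelihood F test), using only the groups compared. P-values were adjusted by the Benjamini-Hochberg method over all genes tested, and genes under 0.05 were called, whatever the size of the change. The standard error is the log2 fold change divided by the square root of F. Levels are CPM, with the TMM factors of each whole table, and between genes CPM per kb of exon. Tables were normalised separately. The level of the gene targeted in OIS-shp53 is not reported here. DESeq2 1.42.0, other scalings and filters, all groups in 1 fit, a replicate block and each library left out were alternatives, and the sets of libraries in the second experiment were added after seeing the data. The depth per library was 1903607 to 24890797 counts, which limits the precision for collagens near 1 CPM. Scripts were tested on simulated data.

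Symbols were given for 42662 of 44503 genes (95.9%), and 85 of 86 genes of the marker and pathway lists were matched. The collagens and lists were chosen with earlier results of these data known. Named by rule were COL1A1, COL1A2, COL3A1, COL5A1, COL5A2, COL4A1, COL4A2, COL6A1, COL6A2, COL6A3 and COL12A1, the 4 largest rises and falls among collagens that passed with a mean of at least 1 CPM (3 for interaction terms), and the largest rise and fall of each pathway list. Other collagens were named after their values were seen.

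In the second experiment, deviations of same-numbered libraries from their group means correlated at 0.142 to 0.593, over 0.1 in all 5 pairs of each comparison. The correlation with the own number was the highest in only 3, 3, 2 and 3 of the 5 pairs of the comparisons. A pairing by number therefore cannot be told apart from the sets of libraries. The correlations come from the data, as the labels give only the numbers.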

Additional observations from a re-analysis of the deposited data

Results flagged for a closer look

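The effect of shA1 differed between senescent and growing cells for 15 collagens by the interaction term (edgeR adjusted p under 0.05). The difference of the log2 fold changes, OIS less Grow, was 0.41 for COL1A1, 0.85 for COL1A2, 0.69 for COL3A1, 0.39 for COL5A2, 0.47 for COL5A3 and 0.88 for COL11A1 among the fibrillar collagens. It was 0.32 for COL4A1, 0.32 for COL4A2, -0.40 for COL4A5, -1.28 for COL4A6 and 0.79 for COL15A1 among the basement membrane collagens. Among the other collagens it was 0.32 for COL6A1, 0.98 for COL8A1, 0.36 for COL16A1 and -1.63 for COL17A1.

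Single libraries stood apart from their group in 5 of 143 values looked at, where chance gives about 1 in 20. OIS replicate 4, the library of low depth, had COL4A1 at 1362 CPM against 1684 to 1869 CPM in the other 7 libraries, and 0.332% of counts in basement membrane collagens against 0.419% to 0.491%. COL1A1 was at 8591 CPM in OIS-shCEBPB replicate 3 and at 8987 to 9048 CPM in the others. COL6A2 was at 10330 CPM in OIS-shCEBPB-shp53 replicate 1 against 9600 to 9809 CPM, and at 60.6 CPM in H1299 replicate 1 against 45.6 to 51.2 CPM.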

How the results depend on the processing

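In all, 3404 values of named collagens were recomputed under an alternative. Of these, 3275 kept their side of the threshold, 45 were no longer called and 73 were newly called. Another 11 changed sign and were called in the reported fit, the alternative or both. Changes of sign that neither fit called are counted among the 3275. With library sizes alone, COL6A1 in OIS against Grow was at 0.02, and the interaction had 6 lower collagens, with 3456 of 13903 genes lower. Keeping genes with at least 1 count gave 11 higher collagens in OIS against Grow, with 6573 of 25508 genes higher. Within the sets of the second experiment, the second set alone gave COL1A1 0.49, COL3A1 0.45, COL5A1 0.22 and COL6A1 0.20 with shCEBPB, COL5A1 0.36 with shp53, COL5A1 0.30 with both, and, for both less the sum, COL1A1 -0.49, COL3A1 -0.69 and COL5A2 -0.32. The first set alone gave COL1A1 -0.11 with shp53. The first set alone gave 20 lower in OIS-v-v, 13 lower with shCEBPB, 10 higher and 4 lower with shp53, 6 lower with both, and 7 higher for both less the sum. The second set alone gave 16 higher with shCEBPB, 11 higher and 1 lower with shp53, 20 higher with both, and 1 higher and 8 lower for both less the sum. The set as a term gave 15 higher with shp53. Over all genes, the share called in either direction also changed. In the first and second set it was 32.6% and 24.6% with shCEBPB, 34% and 5.33% with shp53, and 53.7% and 28.7% with both. For both less the sum it was 3.32% and 2.13%, and in OIS-v-v 66.8% in the first set. With shp53 it was 26.3% with the set as a term, against 4.44% without it. The cause was not tested.

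With the replicate number as a block, 12 collagens were higher with shp53, and the calls it changed in the second experiment are given beside the results. In the first experiment and H1299 the numbers did not pair the libraries (correlations -0.148 to 0.288, own number best in 1, 2 and 2 of 8 and in 1 of 6), and the block gave 6 higher and 21 lower in OIS against Grow, 5 and 12 in Grow-shA1, 12 and 5 in OIS-shA1, 13 and 3 for the interaction and 4 and 2 in H1299-shA1.

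Leaving out 1 library at a time gave 6 higher and 20 to 21 lower in OIS against Grow, 5 to 6 and 11 to 12 in Grow-shA1, 12 to 13 and 5 to 8 in OIS-shA1, 12 to 14 and 3 to 4 for the interaction, 5 to 6 and 8 to 13 in OIS-v-v, 6 to 8 and 4 with shCEBPB, 1 to 3 and 0 with shp53, 9 to 12 and 3 with both, and 2 to 3 and 2 to 3 in H1299-shA1. Over all genes, 330 were higher and 264 lower with shp53, against 1610 and 1427 with the block and 563 and 529 by DESeq2. With shCEBPB 1218 were higher and 1072 lower, against 2261 and 2009 with the block. For both less the sum 3 were higher and 3 lower, against 32 and 72 with the block and 10 and 20 by DESeq2. Library sizes alone moved the share of calls that were higher from 51.9% to 66.2% in OIS against Grow, from 49.4% to 60.3% in Grow-shA1, from 52.3% to 27.8% in OIS-shA1, from 51.7% to 20.4% for the interaction, from 53.2% to 70.9% with shCEBPB and from 50.9% to 71.0% with both.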
